A study of Mus musculus with 30 samples.

Results

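The difference between brown and white fat in the transcript response to 24 h of cold was measured in mice. For each gene it is the response of BAT (brown adipose tissue) minus the response of iWAT (inguinal white adipose tissue), where a response is the log2 ratio of 24 h at 6 °C over 22 °C. It rests on 20 of the 30 bulk RNA libraries of the series, 5 in each of 4 groups: BAT after 24 h at 6 °C, BAT at 22 °C, iWAT after 24 h at 6 °C and iWAT at 22 °C. All genes are members, and 14089 of the 21652 genes in the tables had enough reads to be tested. The mice of every group were male C57BL/6J animals of 7 to 8 weeks, housed 5 to a cage, with no genetic change or drug in any group. The labels give the animal room as 24 ± 2 °C and the controls as 22 °C. They do not say whether libraries of a group, or BAT and iWAT libraries of a number, came from separate or shared animals, so p-values measure the spread between these libraries only. A positive difference means a larger rise or a smaller fall in BAT, and genes with an adjusted p under 0.05 are called.

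Brown adipocytes are rich in mitochondria and burn fatty acids and glucose for heat through the uncoupling protein UCP1. Inguinal white fat stores triglyceride, and in the cold some of its cells take on brown-like features and are then called beige. Noradrenaline released from sympathetic nerves starts lipolysis and the thermogenic program in both tissues through beta-adrenergic receptors and cyclic AMP.

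Assigned counts were 25.3 M to 39.8 M per library in the 4 groups, and levels are given as counts per M reads of a library size scaled by its TMM factor (CPM). The factors lay below 1 in BAT and above 1 in iWAT. The brown fat lineage factor Zic1 had a median of 21.3 CPM in BAT after 24 h and 19.7 CPM at 22 °C, while its highest value was 0 CPM in iWAT after 24 h and 0.0262 CPM in iWAT at 22 °C. The positional factor Hoxc10 was at 0 to 0.0344 CPM in BAT after 24 h and at 0 CPM in BAT at 22 °C, against 17.9 to 22.4 CPM in iWAT after 24 h and 14.8 to 20.5 CPM in iWAT at 22 °C. Skeletal muscle marker transcripts stood out in 1 iWAT library, number 2 at 22 °C, with a summed 3503 CPM over the list, against 3.03 to 7.91 CPM in the other 4 of its group. The same sum was 23.7 to 4515 CPM in BAT after 24 h and 260.9 to 8762 CPM in BAT at 22 °C. Library 4 of iWAT at 22 °C had a summed 12870 CPM of nuclear-encoded respiratory chain genes, against 7105 to 8346 CPM in the others of its group. Without both of these iWAT libraries, 12 of the 90 called genes named by rule lost their call. In such bulk samples fewer cells of a type and less RNA per cell cannot be told apart.

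The 24 h response differed between BAT and iWAT for 1100 of the 14089 tested genes, 7.81% of them, by edgeR's quasi-likelihood test with Benjamini-Hochberg adjustment. The difference was positive for 417 genes (2.96%) and negative for 683 genes (4.85%). A log2 size of at least 1 was reached by 138 called genes with a positive and 152 with a negative difference. In BAT alone 2651 genes were called between 24 h and 22 °C (18.8%), and in iWAT 3735 (26.5%). The 1100 calls became 703 without iWAT 22 °C library 1. Positive calls made up 37.9% of them with TMM scaling, against 51.3% with upper-quartile scaling and 80.3% or 74.4% on the deposited FPKM (pseudocounts of 1 and 0.1). The median difference over all tested genes was -0.01 log2, with quartiles of -0.24 and 0.29.

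Most called differences were a response of 1 depot that was not called in the other. Of the 683 negative differences, 358 were genes that rose in iWAT without a call in BAT and 236 were genes that fell in BAT without a call in iWAT. Of the 417 positive ones, 197 rose in BAT without a call in iWAT and 162 fell in iWAT without a call in BAT. The depots moved in opposite directions, each past the threshold, for 51 genes: 20 rose in BAT and fell in iWAT, and 31 fell in BAT and rose in iWAT. Both depots rose by unequal amounts for 7 genes with a positive and 27 with a negative difference. No call in BAT is not the same as no change there, because all 30 libraries share a single estimate of spread per gene. In a fit of the BAT libraries by themselves, chosen after seeing the data, 37 of the 358 genes rose and 31 fell, and 289 of the 357 that could be tested remained without a call.

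**Figure D1:**
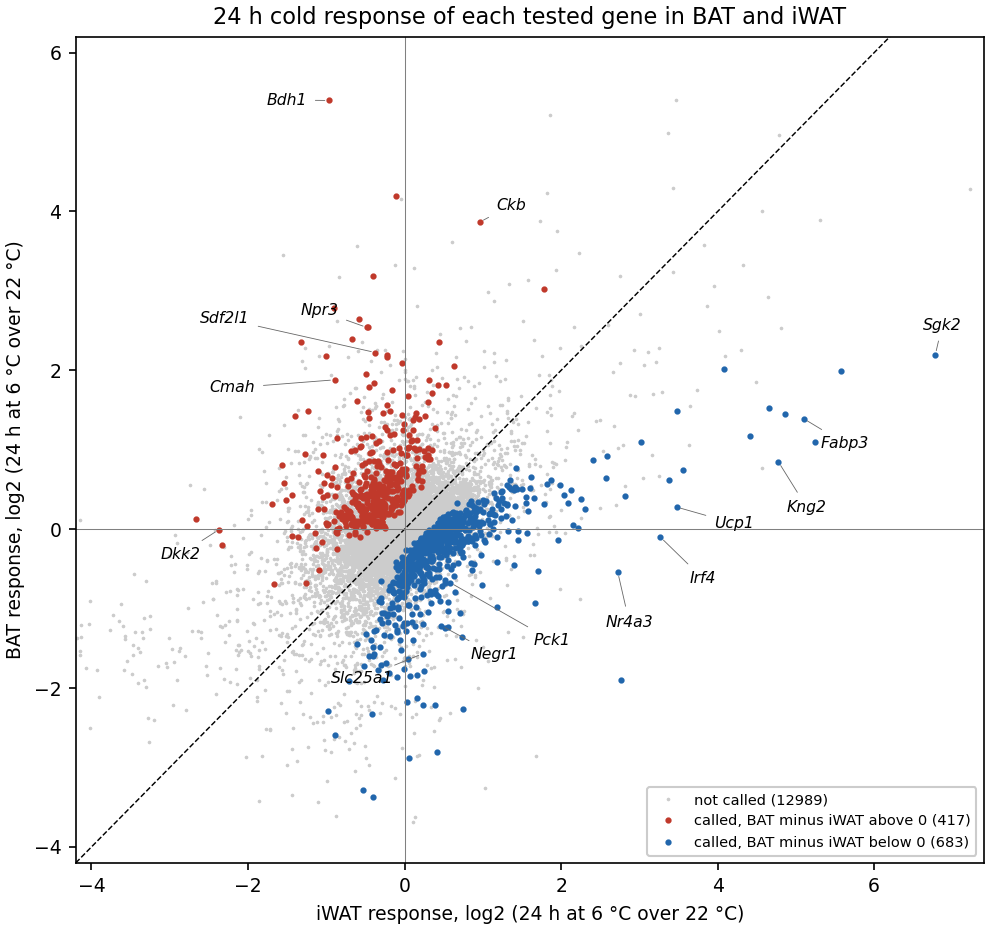
Response to 24 h at 6 °C (log2 over 22 °C) of each tested gene in BAT (y axis) against iWAT (x axis), with the dashed line marking equal responses. The 417 genes called with a positive difference lie above the line and the 683 with a negative difference below it, and 73 genes, 2 of them called, fall outside the axes.

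Most of the largest positive differences belonged to genes that rose severalfold in BAT. Bdh1 encodes the mitochondrial enzyme that interconverts the ketone bodies acetoacetate and 3-hydroxybutyrate. Its level in BAT was 41.2, 16.3, 40.9, 21.5 and 22.6 CPM in libraries 1 to 5 after 24 h, against 0.366, 0.594, 0.189, 0.442 and 1.74 CPM at 22 °C. Every cold BAT library lay far above every BAT library at 22 °C, and the rise was 5.40 ± 0.46 log2 (SE, n = 5 each). In iWAT Bdh1 was close to absent, with 0 to 4 reads per library after 24 h and 1 to 12 at 22 °C, so no iWAT fold is given. The fitted depot difference of 6.36 ± 0.93 (adjusted p = 0.000226) rests for its size on those few reads.

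Ckb encodes the brain-type creatine kinase, which transfers phosphate between creatine and ATP and has been placed in a creatine cycle of brown fat mitochondria. Its level was 599.9, 402.1, 543.8, 417.7 and 315.4 CPM in BAT after 24 h, against 30.1, 42.3, 21.0, 28.3 and 34.8 CPM in BAT at 22 °C. In iWAT it was 33.8, 28.8, 24.0, 22.5 and 35.3 CPM after 24 h, against 17.3, 13.3, 11.3, 16.6 and 15.5 CPM at 22 °C. The cold and 22 °C libraries did not overlap in either depot. Ckb rose 14.6-fold in BAT and 1.95-fold in iWAT, a difference of 2.91 ± 0.28 log2 (adjusted p = 3.37e-07). Among the 12 tested genes of creatine and calcium cycling it was the only called one, where 2.96% of all tested genes were called positive.

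Npr3 encodes the natriuretic peptide clearance receptor, which removes peptides that stimulate lipolysis. It had 358.8, 480.5, 339.9, 629.0 and 604.1 CPM in BAT after 24 h, against 79.6, 84.8, 77.7, 60.7 and 112.0 CPM in BAT at 22 °C. In iWAT the values spread widely, at 137.9, 140.1, 134.1, 374.3 and 483.6 CPM after 24 h and 457.2, 304.7, 346.1, 139.0 and 524.0 CPM at 22 °C. The BAT groups did not overlap while the iWAT groups did, and the difference was 3.02 ± 0.49 log2 (adjusted p = 0.000633). Mal, a lipid raft protein gene, had 7.13 to 15.6 CPM in BAT after 24 h and 1.19 to 3.47 CPM at 22 °C, with a difference of 2.39 ± 0.53 (adjusted p = 0.00679).

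Cmah, the hydroxylase that makes N-glycolylneuraminic acid, was called in opposite directions in the depots. It had 8.01, 8.48, 5.15, 10.8 and 11.1 CPM in BAT after 24 h, against 1.87, 1.28, 3.09, 2.33 and 3.17 CPM at 22 °C. In iWAT it had 2.39, 4.34, 7.00, 6.37 and 4.69 CPM after 24 h, against 14.4, 9.86, 7.42, 10.9 and 3.601 CPM at 22 °C. The BAT groups were apart, and the iWAT groups overlapped through library 5 at 22 °C. The rise in BAT was 1.88 log2, the fall in iWAT was -0.89, and the difference was 2.78 ± 0.46 (adjusted p = 0.000633). In a fit of the iWAT libraries alone the fall was not called (adjusted p = 0.0612).

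Plac8 and Dkk2, also among the largest 8, were called as falls in iWAT and not called in BAT. Plac8, expressed in several immune and fat precursor cells, fell by 1.41 log2 in iWAT, with a difference of 2.83 ± 0.79 (adjusted p = 0.0259). Its call was lost without BAT 24 h library 4 (adjusted p = 0.0903) and without BAT 22 °C library 3 (0.0547). The iWAT groups of Plac8 overlapped, and in the fit of iWAT libraries alone its fall was not called (adjusted p = 0.0635). Dkk2, a secreted Wnt antagonist, fell by 2.37 log2 in iWAT, with a difference of 2.37 ± 0.74 (adjusted p = 0.0467). Leaving out 1 library lost the Dkk2 call in 13 of 20 cases, with an adjusted p of up to 0.108.

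**Figure D2:**
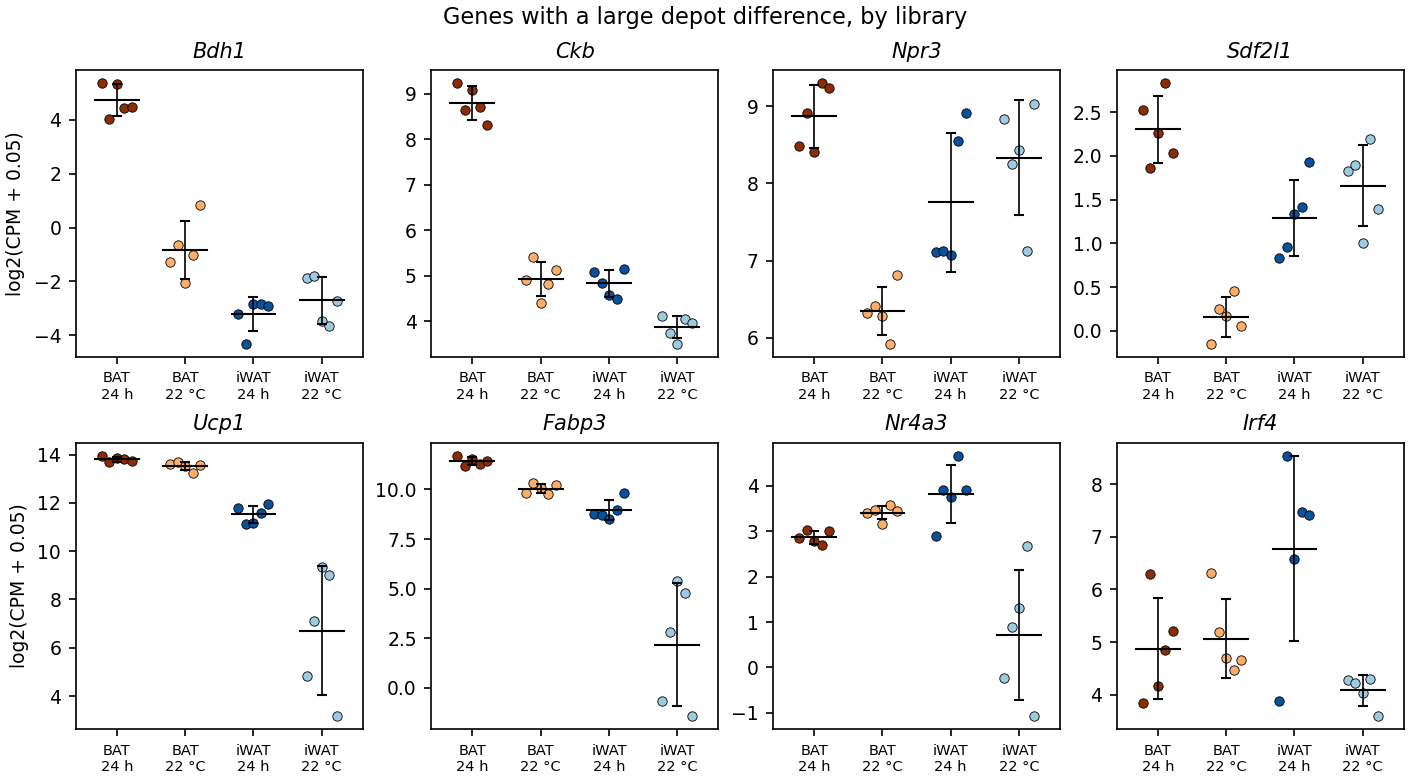
Level of 8 genes with a large depot difference in each library, as log2 of CPM plus 0.05 on a y axis of its own for each gene. Points are libraries, bars are the mean and SD of 5 libraries, and each panel runs from BAT at 24 h and 22 °C to iWAT at 24 h and 22 °C. For Bdh1, Ckb, Npr3 and Sdf2l1 the cold BAT points stand clear of all other groups or of BAT at 22 °C, while for Ucp1 and Fabp3 the widest step lies between the iWAT groups.

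Chaperones of the endoplasmic reticulum were the metabolic or stress list with the most positive differences. Of the 20 tested genes of the unfolded protein response, 5 had a called positive difference (Sdf2l1, Creld2, Calr, Pdia4 and Pdia6) and 1, Dnajb9, a negative one. The list's median difference was 0.16 log2, against -0.01 over all tested genes. Its positive and negative calls are 25% and 5% of the list, against 2.96% and 4.85% of all tested genes. BAT raised 11 of the 20 and lowered 2, and iWAT raised 5 and lowered 3 (10.2% and 8.63% of all tested genes rose and fell in BAT, 16% and 10.5% in iWAT). Leaving out any 1 library left 4 or 5 positive calls and the negative one.

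Sdf2l1, a partner of the chaperone BiP in protein folding, led the list. It had 5.70, 3.59, 4.75, 7.05 and 4.06 CPM in BAT after 24 h, against 0.854, 1.14, 1.07, 1.33 and 0.987 CPM at 22 °C. In iWAT it had 1.73, 1.89, 2.48, 2.61 and 3.77 CPM after 24 h, against 3.49, 3.66, 1.95, 4.51 and 2.58 CPM at 22 °C. Cold BAT was above BAT at 22 °C in every library, the iWAT groups overlapped, and the difference was 2.60 ± 0.36 log2 (adjusted p = 8.92e-05). Creld2, a folding factor, averaged 13.1 ± 0.687 CPM in BAT after 24 h and 8.59 ± 1.13 CPM at 22 °C (SD, n = 5 each), without overlap, and differed by 0.69 ± 0.16 (edgeR adjusted p = 0.0108). Calr, the calcium-binding chaperone calreticulin, rose by 0.69 log2 in BAT and differed by 0.53 (adjusted p = 0.00724). The disulfide isomerase genes Pdia4 and Pdia6 fell in iWAT by 0.27 and 0.20 log2, with differences of 0.42 (adjusted p = 0.0311) and 0.38 (adjusted p = 0.0183).

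The list was not uniform. Hspa5, which encodes BiP itself, rose by 0.52 log2 in both depots, and Manf, a secreted stress factor, rose in both with a difference of 0.00 ± 0.22. Xbp1, the transcription factor that induces many of these genes, fell by 0.47 in BAT and by 0.49 in iWAT. Dnajb9, a BiP co-chaperone, had 115.3, 132.2, 102.9, 148.7 and 132.8 CPM in BAT after 24 h and 119.8, 133.1, 114.9, 128.6 and 105.3 CPM at 22 °C. It rose in iWAT, with 141.7, 128.7, 121.0, 150.9 and 143.9 CPM after 24 h against 49.0, 66.3, 70.4, 92.6 and 44.3 CPM at 22 °C. Only the iWAT groups were apart, and the Dnajb9 difference was -1.02 ± 0.22 (adjusted p = 0.00499).

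The endoplasmic reticulum stress element was searched in the promoters of the list, because its known readers are factors of this response. The motif was written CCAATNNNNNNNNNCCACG, on both strands, in the 250 bases before each RefSeq gene start (GRCm38.p6). It was found in 8 of the 18 list genes with a promoter in the table (44.4%), against 35 of all 27025 genes (0.13%). The list was chosen as genes of this response, so that excess describes the list and not the depot difference. Among the genes with a called difference the motif was present in Calr, Creld2 and Pdia6 and was not in these windows of Sdf2l1, Pdia4 or Dnajb9. It was also present in Canx, Dnajc3, Hsp90b1, Hspa5 and Syvn1, whose differences were not called. The 3 matching promoters of called genes are shown from 250 to 51 bases before the start, 5′ to 3′ along the gene, with the ends of the motif in capitals. They lie at chr8:84846982-84847181 on the minus strand (Calr), chr15:88819396-88819595 on the plus strand (Creld2) and chr12:17266339-17266538 on the plus strand (Pdia6).
Calr: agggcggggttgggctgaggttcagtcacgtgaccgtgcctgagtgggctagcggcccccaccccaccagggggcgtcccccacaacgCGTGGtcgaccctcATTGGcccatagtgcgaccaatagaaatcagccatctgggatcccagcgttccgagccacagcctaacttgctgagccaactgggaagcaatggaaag
Creld2: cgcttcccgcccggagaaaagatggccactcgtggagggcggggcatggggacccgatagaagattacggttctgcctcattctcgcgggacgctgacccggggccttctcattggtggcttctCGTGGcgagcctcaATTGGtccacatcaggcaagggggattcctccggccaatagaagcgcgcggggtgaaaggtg
Pdia6: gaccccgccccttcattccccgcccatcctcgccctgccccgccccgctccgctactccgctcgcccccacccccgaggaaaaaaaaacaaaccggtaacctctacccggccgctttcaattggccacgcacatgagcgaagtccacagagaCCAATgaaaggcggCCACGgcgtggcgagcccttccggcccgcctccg
The motif runs against the gene in Calr and Creld2 and with the gene in Pdia6. A match describes the letters only, and binding was not measured.

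The thermogenic adipocyte genes showed the opposite pattern: most rose in iWAT, and fewer of them were called in BAT. Of 27 tested genes 10 had a called difference, all negative, and the list's median difference was -1.26 log2. In BAT 4 of the 27 were called, all as rises, with a median response of 0.28. In iWAT 21 rose and 1, Adrb3, fell, with a median of 1.78. Of all tested genes 10.2% rose in BAT, 16% rose and 10.5% fell in iWAT, and 4.85% had a called negative difference. The 10 called genes were Fabp3, Irf4, Ucp1, Dio2, Gk, Ppargc1b, Cpt1b, Acot2, Letmd1 and Kcnk3. Single libraries moved the count: 6 were called without BAT 24 h library 4, 5 without iWAT 22 °C library 2 and 16 without iWAT 22 °C library 4.

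Ucp1 had 15920, 13130, 14920, 14300 and 13690 CPM in BAT after 24 h, against 12590, 13040, 11870, 9654 and 12140 CPM at 22 °C. In iWAT it had 3559, 2243, 2291, 3031 and 3910 CPM after 24 h, against 28.8, 138.4, 652.9, 523.3 and 9.01 CPM at 22 °C. The groups did not overlap in either depot, and the iWAT libraries at 22 °C were spread over a wide range. Ucp1 stood at 0.28 ± 0.64 log2 in BAT (adjusted p = 0.805) and rose by 3.47 ± 0.70 in iWAT (adjusted p = 0.000521). The difference was -3.20 ± 0.92 (adjusted p = 0.0312), and it lost its call without BAT 24 h library 4 (adjusted p = 0.0518) or iWAT 22 °C library 2 (0.0594). In CPM the mean gain was 2533 in BAT and 2736 in iWAT.

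Fabp3, a fatty acid binding protein of oxidative tissues, had 3345, 2342, 2955, 2523 and 2744 CPM in BAT after 24 h, against 915.8, 1266, 1081, 863.8 and 1176 CPM at 22 °C. In iWAT it had 441.1, 426.4, 361.8, 497.3 and 905.4 CPM after 24 h, against 0.582, 6.91, 41.4, 27.7 and 0.326 CPM at 22 °C. In both depots every cold library lay above every 22 °C library, and the difference was -3.71 ± 1.06 log2 (adjusted p = 0.0289). The change in CPM was larger in BAT, at 1722 CPM, than in iWAT, at 511.0 CPM, so the sign of this difference depends on the scale. Its call was lost without BAT 24 h library 4 (0.0502), iWAT 24 h library 5 (0.0517) or iWAT 22 °C library 2 (0.0547).

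Dio2, the deiodinase that activates thyroid hormone inside the cell, had 668.2 to 969.0 CPM in BAT after 24 h and 363.5 to 638.3 CPM at 22 °C. It rose by 3.38 log2 in iWAT, with 143.7 to 248.7 CPM after 24 h and 1.38 to 51.1 CPM at 22 °C. The difference was -2.77 ± 0.80 (adjusted p = 0.0312) and its call was lost in 5 of 20 omissions, with an adjusted p of up to 0.0594. Across all called genes, 49 of the 683 negative log2 differences (7.17%) turned positive as a difference of signed CPM changes, while 0 of the 417 positive ones turned. Among the 49 were also Gk, Kng2, Sgk2, Slco4a1, Fam131c, Cend1, Slc16a1, Cycs, Letmd1, Kcnk3, Abcd2, Pgk1 and Pgam1.

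The shared fit uses 1 estimate of spread per gene for both depots. In the fit of BAT libraries alone, Fabp3 rose by 1.37 log2 (adjusted p = 1.77e-06), Dio2 by 0.60 (0.00424) and Gk by 0.40 (0.00647). Ucp1, at 0.26 log2, did not pass there (adjusted p = 0.0672).

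Irf4 and Nr4a3, a pair of transcription factors induced by cyclic AMP in fat, rose in iWAT without a called rise in BAT. Irf4 had 14.4, 78.2, 18.02, 28.8 and 37.2 CPM in BAT after 24 h and 79.3, 36.5, 26.0, 22.1 and 25.1 CPM at 22 °C. In iWAT the Irf4 values were 14.7, 372.3, 95.1, 176.3 and 169.6 CPM after 24 h, against 19.5, 18.6, 16.3, 19.5 and 12.1 CPM at 22 °C. The iWAT library 1 after 24 h lay within the 22 °C range, and the BAT groups overlapped. The Irf4 difference was -3.37 ± 0.73 (adjusted p = 0.00592). Nr4a3 had 7.15, 8.15, 6.81, 6.44 and 7.97 CPM in BAT after 24 h and 10.5, 11.1, 8.95, 11.9 and 10.8 CPM at 22 °C. Every cold BAT library lay below every one at 22 °C, though the BAT response of -0.54 was not called in the shared fit. In the fit of BAT libraries alone Nr4a3 was called as a fall, at -0.56 log2 (adjusted p = 0.00682). In iWAT it had 7.38, 14.9, 13.5, 25.4 and 14.9 CPM after 24 h, against 0.807, 1.81, 2.42, 6.32 and 0.427 CPM at 22 °C. The Nr4a3 difference was -3.27 ± 0.60 (adjusted p = 0.00153).

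Several core brown fat genes did not show a called depot difference. Ppargc1a, the coactivator of mitochondrial biogenesis, rose by 2.09 log2 in BAT and by 2.76 in iWAT, a difference of -0.67 ± 0.51 (adjusted p = 0.454). Elovl3, a fatty acid elongase, rose by 2.18 in BAT and 4.09 in iWAT, a difference of -1.91 ± 0.88 (adjusted p = 0.183). Bmp8b, a secreted factor of thermogenic fat, rose by 4.96 in BAT and 4.79 in iWAT, a difference of 0.17 ± 0.74 (adjusted p = 0.915). The paralog Ppargc1b in contrast stood at 0.02 in BAT and rose by 2.21 in iWAT, a difference of -2.19 ± 0.29 (adjusted p = 7.91e-05). Missing the threshold does not show equal responses: the errors of Ppargc1a and Elovl3 leave room for sizable differences.

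Among the 8 largest negative differences were genes with almost no reads in iWAT at 22 °C. Sgk2, a serum and glucocorticoid regulated kinase, had 72.2 to 98.0 CPM in BAT after 24 h and 12.1 to 29.8 CPM at 22 °C. In iWAT it had 9.47 to 17.7 CPM after 24 h, while 3 of the 5 libraries at 22 °C had no read and the highest had 17 reads. Both depots rose, without overlap, and the fitted difference was -4.58 ± 1.03 (adjusted p = 0.00724). Slco4a1, an organic anion transporter, had 2 to 6 reads per iWAT library at 22 °C and 113 to 197 after 24 h, a fitted difference of -4.14 ± 0.80 (adjusted p = 0.00212). The sizes of the Sgk2 and Slco4a1 differences rest on those few reads, as do those of Fam131c (-3.58) and Cend1 (-3.40), genes of little known function in fat.

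Kng2 encodes a kininogen, the precursor of kinin peptides. It had 254.0, 235.0, 278.1, 230.3 and 229.3 CPM in BAT after 24 h, against 148.9, 122.2, 116.8, 116.7 and 177.6 CPM at 22 °C. In iWAT it had 9.49, 8.25, 8.55, 12.2 and 20.8 CPM after 24 h, against 0.507, 0.393, 0.467, 0.369 and 0.387 CPM at 22 °C. The groups were apart in both depots, and the difference was -3.93 ± 0.79 (adjusted p = 0.0033). The mean gain in CPM was larger in BAT, at 108.9 CPM, than in iWAT, at 11.4 CPM. Kng2 shares long stretches of sequence with Kng1, and how reads of the copies were assigned is not stated in the sources used here.

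Genes of the mitochondrial machinery had a smaller negative difference that ran through nearly whole lists. All 34 nuclear-encoded respiratory chain and ATP synthase genes had a negative difference, 14 of them called, with a median of -0.63 log2 and a range of -0.99 to -0.35. The calls are 41.2% of the list, against 4.85% of all tested genes called negative. Over all tested genes 16% rose in iWAT and 18.8% were called in BAT. In iWAT 32 of the 34 rose, with a median of 0.67, and in BAT 0 were called, with a median of 0.06, while 1 was higher and 1 lower there at an unadjusted p under 0.05. The leading members were Cycs, the electron carrier cytochrome c, at -0.99 ± 0.28 (adjusted p = 0.0254), Sdhd of complex II at -0.85 ± 0.22 (0.0185) and Cyc1 of complex III at -0.85 ± 0.24 (0.0288). Cycs had 2614, 2416, 2445, 2230 and 2296 CPM in BAT after 24 h, against 1695, 1603, 1654, 1662 and 1825 CPM at 22 °C. In iWAT Cycs had 1238, 1129, 910.7, 995.1 and 1089 CPM after 24 h, against 275.8, 326.6, 387.7, 657.9 and 245.2 CPM at 22 °C. The cold Cycs libraries lay above the 22 °C ones in both depots, and the BAT step missed the threshold in the shared fit (adjusted p = 0.0678). In the fit of BAT libraries alone the Cycs rise of 0.49 log2 was called (adjusted p = 0.000149). Of the 13 protein genes of the mitochondrial genome 0 were called by edgeR, 0 by DESeq2 and 3 at an unadjusted p under 0.05, with a median of -0.36.

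How many of these members were called depended on the iWAT libraries at 22 °C. The count of 14 became 7 without library 1 or library 2 of that group and 31 without library 4, the library with the highest respiratory chain sum. Without both library 2 and library 4 it was 31. Without the 24 h library 4 of both depots it was 8. The Cycs call was lost without iWAT 22 °C library 1 (adjusted p = 0.0571) or library 2 (0.051), and the Cyc1 call in 5 of 20 omissions (up to 0.0629). The list median kept its sign under every alternative run, between -0.85 and -0.51.

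The tricarboxylic acid cycle had the largest share of called members among these lists, 12 of 17, all negative, with a median of -0.71. That is 70.6%, against 4.85% of all tested genes called negative. Pdha1, the E1 subunit of pyruvate dehydrogenase, differed by -1.10 ± 0.27 (adjusted p = 0.0122), and Suclg1, a subunit of succinyl-CoA ligase, by -1.02 ± 0.25 (0.0124). Suclg1 had 1178, 1115, 1125, 1145 and 1035 CPM in BAT after 24 h and 1232, 1254, 1156, 1184 and 1198 CPM at 22 °C. It had 241.3, 248.2, 183.8, 202.9 and 243.0 CPM in iWAT after 24 h, against 85.1, 107.4, 139.6, 165.4 and 97.9 CPM at 22 °C. The iWAT groups were apart, the BAT groups overlapped, and even cold iWAT stayed well below BAT. Without iWAT 22 °C library 1 or 2 the list had 7 calls. Of 20 genes of mitochondrial transcription, translation and import, 6 were called, all negative, among them Tfb2m, a mitochondrial transcription factor, at -0.80 ± 0.15 (adjusted p = 0.00145), and the import motor gene Timm44 at -0.65 ± 0.16 (0.0149). That count of 6 is 30% of the list, against the same 4.85%, and was 12 without iWAT 22 °C library 4.

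Fatty acid oxidation had 11 negative calls and 1 positive call among 26 genes, with a median of -0.51. These are 42.3% and 3.85% of the list, against 4.85% and 2.96% of all tested genes, so the single positive call is near background. The exception was Cpt1a, a gate for fatty acid entry into mitochondria, which rose by 1.03 log2 in BAT and stood at 0.06 in iWAT (difference 0.97 ± 0.25, adjusted p = 0.0159). Its muscle-type paralog Cpt1b did the reverse, standing at 0.06 in BAT and rising by 2.15 in iWAT (difference -2.09 ± 0.54, adjusted p = 0.0175). Cpt1b had 14.9 to 21.8 CPM in BAT after 24 h and 14.3 to 19.7 CPM at 22 °C, against 4.32 to 6.15 CPM in iWAT after 24 h and 0.451 to 2.44 CPM in iWAT at 22 °C. Acot2, a mitochondrial acyl-CoA thioesterase with the close paralog Acot1, differed by -1.46 ± 0.28 (adjusted p = 0.00234), and Abcd2, a peroxisomal transporter, fell by 1.48 in BAT and differed by -1.18 ± 0.26 (0.00601). The 11 negative calls became 5 without iWAT 22 °C library 1 and 20 without its library 4.

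**Figure D3:**
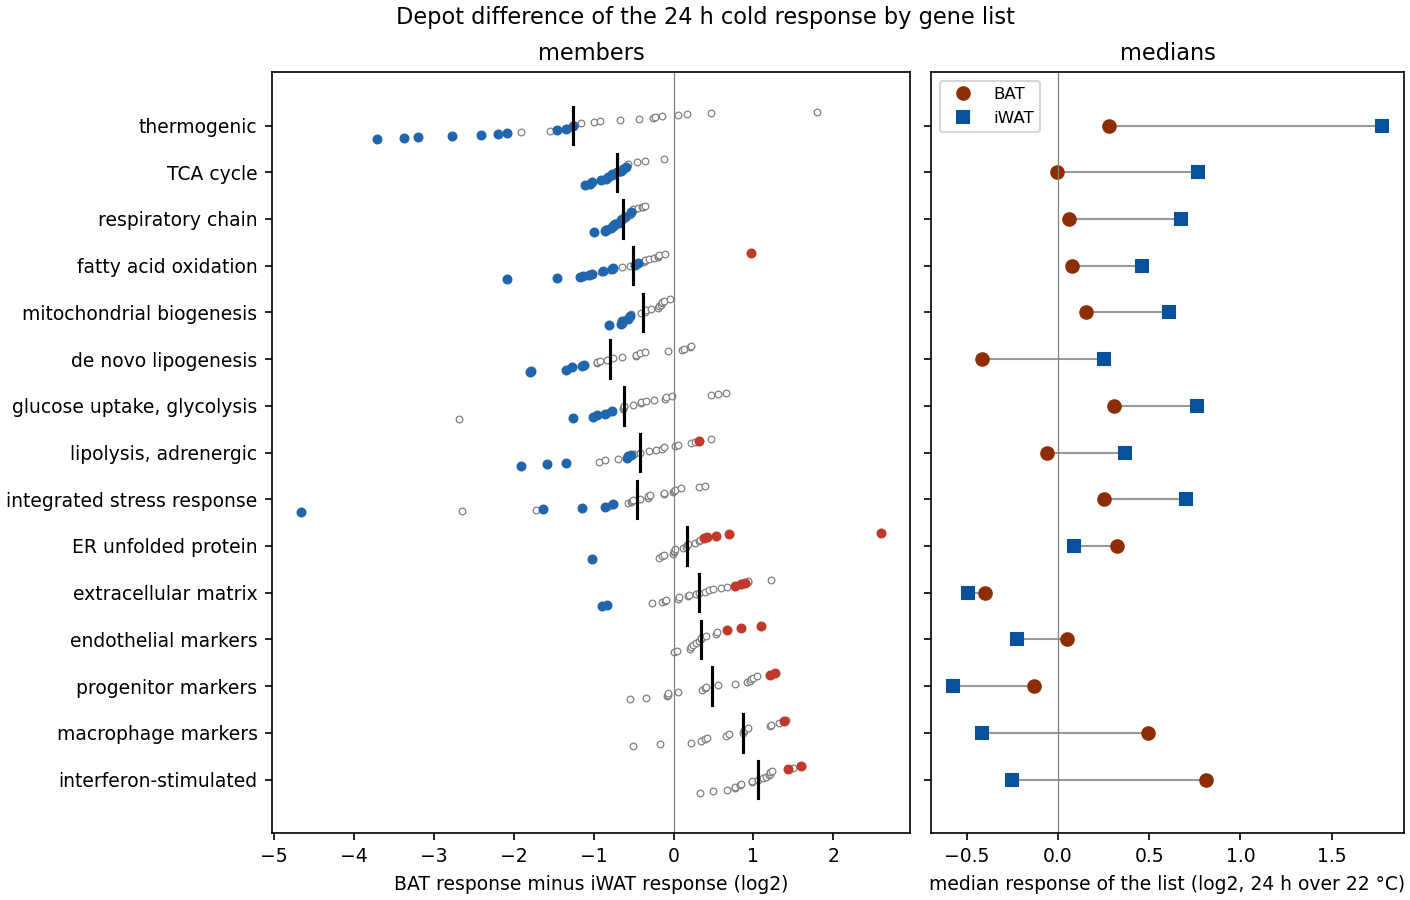
Left, BAT response minus iWAT response (log2, x axis) of each tested member of 15 gene lists (y axis), with filled points for called genes and a bar at each list's median. Right, the median response of each list (log2, 24 h over 22 °C) in BAT (circle) and iWAT (square). The medians of the metabolic and integrated stress lists lie left of 0 in the left panel, and those of the unfolded protein, matrix, vascular, progenitor, macrophage and interferon lists lie right of 0.

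The fatty acid synthesis genes called in BAT all fell there, while few were called in iWAT. Of 22 genes of de novo lipogenesis, 8 were called in BAT, all as falls, with a median of -0.42 log2, while in iWAT 4 rose and 1 fell, with a median of 0.25. Among all tested genes 8.63% fell in BAT, and 16% rose and 10.5% fell in iWAT. The share of rises in iWAT is thus near that of all tested genes. The depot difference was called for 6 genes, all negative, with a list median of -0.79: Slc25a1, Acly, Acaca, Fasn, Scd1 and Thrsp. They span the pathway, from the mitochondrial citrate exporter (Slc25a1) through the enzymes that make acetyl-CoA (Acly), malonyl-CoA (Acaca) and palmitate (Fasn) to the delta-9 desaturase (Scd1) and the regulator Spot14 (Thrsp). The 6 calls are 27.3% of the list, against 4.85% of all tested genes called negative. The count of 6 became 1 without iWAT 24 h library 2 and 2 without iWAT 22 °C library 2. In the fit of iWAT libraries alone Slc25a1, Acly, Fasn, Scd1 and Thrsp were not called (adjusted p of 0.624, 0.389, 0.494, 0.41 and 0.148).

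Slc25a1 had 210.4, 145.0, 130.5, 200.7 and 135.1 CPM in BAT after 24 h, against 700.9, 318.1, 472.3, 530.3 and 414.3 CPM at 22 °C. In iWAT it had 513.6, 891.1, 241.4, 550.6 and 322.0 CPM after 24 h, against 458.2, 289.5, 367.3, 606.2 and 425.7 CPM at 22 °C. Cold BAT was below BAT at 22 °C in every library, the iWAT groups overlapped, and the difference was -1.80 ± 0.39 (adjusted p = 0.00542). Fasn had 7247, 9589, 3722, 8048 and 5569 CPM in BAT after 24 h, against 17560, 10170, 15690, 13920 and 13300 CPM at 22 °C, again without overlap. In iWAT Fasn had 4874, 8487, 2814, 6522 and 3356 CPM after 24 h and 4246, 2917, 4618, 4323 and 5038 CPM at 22 °C, with overlap. Its difference of -1.35 ± 0.38 (adjusted p = 0.027) lost its call without iWAT 24 h library 2 (0.0656) or iWAT 22 °C library 2 (0.0557).

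Scd1 fell to 13230 to 18130 CPM in BAT after 24 h, against 24500 to 32230 CPM at 22 °C, while iWAT had 25600 to 35610 CPM after 24 h and 20950 to 31750 CPM at 22 °C. The difference of -1.11 ± 0.33 (adjusted p = 0.0347) was lost in 8 of 20 omissions, with an adjusted p of up to 0.0691. Acly differed by -1.79 ± 0.56 (adjusted p = 0.0464), lost in 13 of 20 omissions (up to 0.122). Acaca differed by -1.27 ± 0.35 (adjusted p = 0.0256), and Thrsp by -1.15 ± 0.31 (0.0208), lost without iWAT 24 h library 2 (0.0534).

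The genes that moved in opposite directions in the depots were led, on the negative side, by Smim36, Negr1, Gpr135 and Pck1. Pck1 encodes cytosolic phosphoenolpyruvate carboxykinase, which supplies glycerol-3-phosphate for triglyceride in fat. It had 3111, 3531, 2675, 2802 and 2715 CPM in BAT after 24 h, against 5554, 5393, 4240, 4250 and 4189 CPM at 22 °C. In iWAT it had 2894, 4342, 4141, 4317 and 4133 CPM after 24 h, against 2332, 2366, 2823, 3030 and 2703 CPM at 22 °C. BAT fell without overlap, iWAT rose with library 1 after 24 h inside the 22 °C range, and the difference was -1.25 ± 0.17 (adjusted p = 7.91e-05).

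Negr1, a neuronal adhesion molecule, had 22.5, 22.6, 25.2, 18.1 and 20.4 CPM in BAT after 24 h, against 52.3, 54.0, 54.0, 46.3 and 45.5 CPM at 22 °C. In iWAT it had 85.5, 73.4, 104.4, 65.5 and 73.7 CPM after 24 h, against 53.0, 52.1, 70.9, 65.3 and 49.8 CPM at 22 °C. The BAT groups were far apart, the iWAT groups touched, and the difference was -1.68 ± 0.17 (adjusted p = 7.58e-07). Smim36, a small membrane protein gene, fell by 1.06 in BAT and rose by 0.70 in iWAT, and the orphan receptor gene Gpr135 fell by 0.79 and rose by 0.64. Nrg4, a growth factor secreted by brown fat, had 95.4 to 113.3 CPM in BAT after 24 h, against 166.2 to 202.2 CPM at 22 °C. In iWAT Nrg4 had 110.3 to 137.4 CPM after 24 h and 83.7 to 133.6 CPM at 22 °C, and its difference was -1.10 ± 0.16 (adjusted p = 0.000154). The Nrg4 rise in iWAT, called in the shared fit, was not called in the fit of iWAT alone (adjusted p = 0.099).

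On the positive side the leading opposed genes after Cmah were Cyb561, Endod1 and Pcsk6. Cyb561, a transmembrane electron carrier, had 6.75, 6.71, 6.38, 6.03 and 6.77 CPM in BAT after 24 h, against 4.71, 4.57, 4.66, 5.06 and 3.91 CPM at 22 °C. In iWAT it had 4.64, 5.199, 6.58, 6.05 and 5.74 CPM after 24 h, against 8.60, 8.92, 7.97, 8.17 and 7.95 CPM at 22 °C. Neither depot overlapped between cold and 22 °C, and the difference was 1.07 ± 0.23 (adjusted p = 0.00607). Endod1, which encodes a nuclease domain protein, differed by 1.05 ± 0.22 (0.00499), and Pcsk6, a proprotein convertase gene, by 0.99 ± 0.18 (0.00176). The Pcsk6 fall in iWAT was not called in the fit of iWAT alone (adjusted p = 0.0511).

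**Figure D4:**
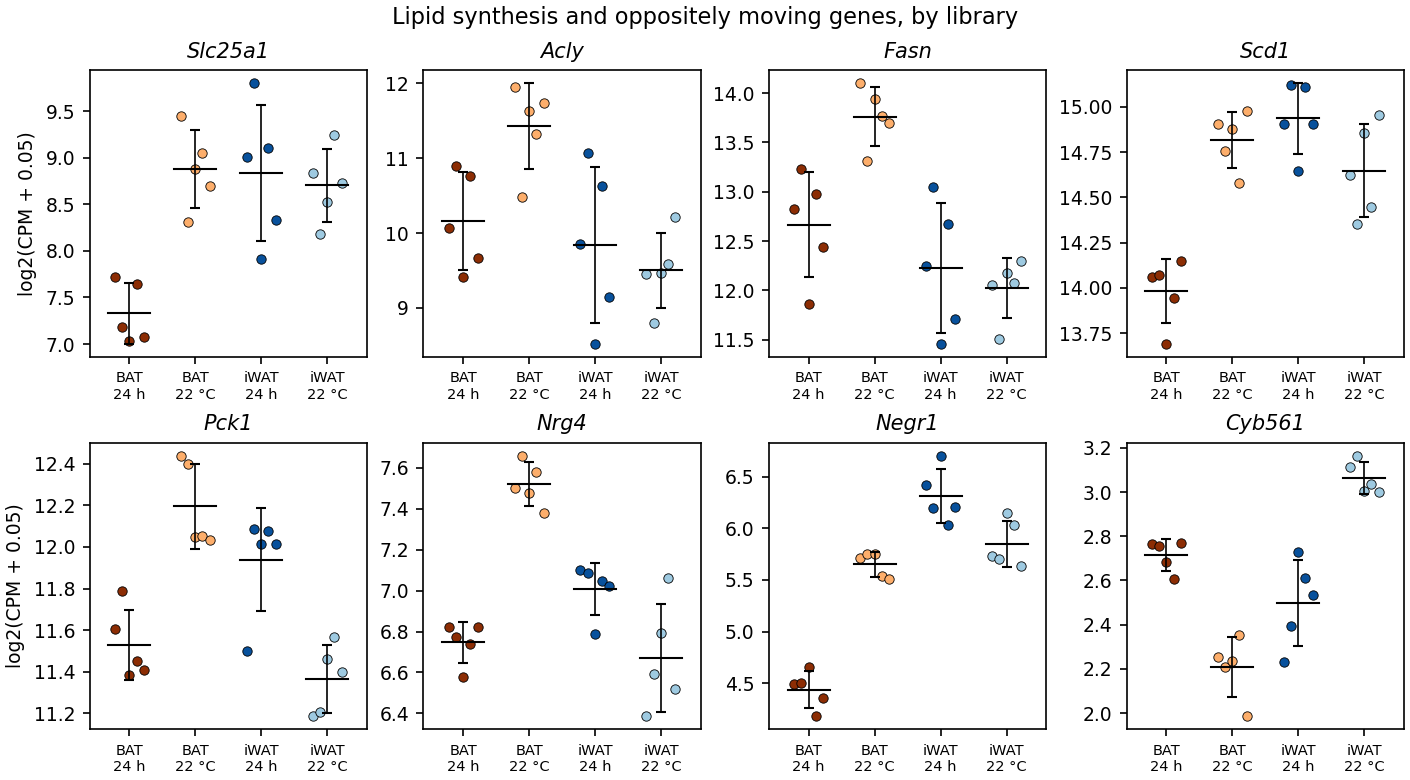
Level of 4 lipid synthesis genes (top) and 4 genes called in opposite directions (bottom) in each library, as log2 of CPM plus 0.05 on a y axis of its own for each gene, with the mean and SD of 5 libraries. The cold BAT points lie below BAT at 22 °C for every gene except Cyb561 and, for a few points, Acly, and for Pck1, Nrg4 and Negr1 the iWAT means move the other way.

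The called genes of the fuel uptake lists had negative log2 differences, as most of those of oxidation did. In glucose uptake and glycolysis 5 of 23 genes were called, all negative, with a median of -0.62: the lactate and pyruvate carrier Slc16a1 (-1.26 ± 0.33, adjusted p = 0.0189), the mitochondrial pyruvate carrier subunits Mpc1 (-1.004 ± 0.25, 0.0149) and Mpc2 (-0.96 ± 0.25, 0.0192), and the glycolytic enzymes Pgk1 (-0.86) and Pgam1 (-0.77). Slc16a1 had 613.8 to 706.5 CPM in BAT after 24 h and 418.0 to 548.6 CPM at 22 °C, against 143.9 to 236.0 CPM in iWAT after 24 h and 50.7 to 86.1 CPM at 22 °C. Its groups did not overlap in either depot. For Slc16a1, Pgk1 and Pgam1 the sign turned as a difference of CPM changes, and no glucose transporter was among the 5 called genes. Those 5 are 21.7% of the list, against 4.85% of all tested genes called negative. Pdk4, the kinase that shuts pyruvate dehydrogenase, rose by 2.26 in iWAT and differed by -1.88 ± 0.55 (adjusted p = 0.0312), a call lost in 8 of 20 omissions (up to 0.0631).

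Fatty acid uptake and triglyceride synthesis had 7 negative calls of 26, with a median of only -0.17, and 9 of the 26 rose in BAT and 20 in iWAT. The calls are 26.9% of the list, against 4.85% of all tested genes called negative. Over all tested genes 10.2% rose in BAT and 16% in iWAT. Gk, the glycerol kinase that lets fat cells reuse glycerol, led with Fabp3 and differed by -2.41 ± 0.68 (adjusted p = 0.0272). It had 1520 to 1857 CPM in BAT after 24 h and 1026 to 1610 CPM at 22 °C, against 312.3 to 610.5 CPM in iWAT after 24 h and 13.8 to 132.4 CPM at 22 °C. The Gk call was lost without iWAT 22 °C library 2 (0.0536), and the list had 3 calls without that library.

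Lipolysis and beta-adrenergic signalling had 6 negative calls and 1 positive call of 21, with a median of -0.41. These are 28.6% and 4.76% of the list, against 4.85% and 2.96% of all tested genes, so the single positive call is near background. Hcar2, the receptor for 3-hydroxybutyrate that restrains lipolysis, had 1.76, 0.606, 1.43, 1.16 and 1.89 CPM in BAT after 24 h, against 4.92, 4.29, 4.16, 9.402 and 2.38 CPM at 22 °C. In iWAT Hcar2 had 44.6, 41.9, 44.9, 42.5 and 53.8 CPM after 24 h and 36.5, 48.7, 44.1, 56.4 and 31.7 CPM at 22 °C. It fell in BAT without overlap, stayed within its range in iWAT, and differed by -1.91 ± 0.39 (adjusted p = 0.00336). The phosphodiesterase gene Pde4d rose by 1.33 in iWAT and differed by -1.34 ± 0.30 (adjusted p = 0.00753). Adrb3, the main adrenergic receptor of mouse fat cells, stood at -0.08 in BAT and fell by 0.55 in iWAT, a difference of 0.47 ± 0.19 that was not called (adjusted p = 0.131). The positive call was the glycerol channel Aqp7, at 0.32 ± 0.10 (0.0437). That call was absent in 14 of the 20 omissions.

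Of 7 genes of thyroid hormone handling, 4 were called, all negative: Dio2, Thrsp, the transporter Slc16a10 (-0.45) and the receptor Thrb (-0.59 ± 0.14, adjusted p = 0.00993). Thrb stood at -0.25 in BAT and rose by 0.35 in iWAT. The 4 calls are 57.1% of this short list, against 4.85% of all tested genes called negative. The count became 2 without BAT 24 h library 4, BAT 22 °C library 2 or iWAT 24 h library 1.

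The called depot differences of the integrated stress response were all negative, unlike most of those of the endoplasmic reticulum chaperones. Of 24 genes 5 were called, all negative, with a median of -0.46, and 5 rose and 3 fell in BAT while 13 rose and 1 fell in iWAT. The calls are 20.8% of the list, against 4.85% of all tested genes called negative. Over all tested genes 10.2% rose and 8.63% fell in BAT, and 16% rose and 10.5% fell in iWAT. The share of falls in BAT is near that of all tested genes. Mthfd2, a mitochondrial folate enzyme, had 3.33 to 12.3 CPM in BAT after 24 h and 2.76 to 5.39 CPM at 22 °C, against 8.88 to 18.9 CPM in iWAT after 24 h and 2.38 to 3.33 CPM at 22 °C. It differed by -1.63 ± 0.43 (adjusted p = 0.0189). Sesn2, a stress sensor of amino acids, rose by 1.02 in iWAT and differed by -1.15 ± 0.26 (0.00709). The others were Asns and Atf5, at -0.86 and -0.76, and Slc7a11, whose difference of -4.66 ± 1.25 rests on 0 to 3 reads per cold BAT library. The count became 3 without BAT 22 °C library 3. Gdf15, a secreted stress hormone, rose in both depots, by 2.92 in BAT and 4.64 in iWAT, with a difference of -1.72 ± 1.08 that was not called (adjusted p = 0.355).

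Of 14 cytosolic heat shock genes only Hspa8, the constitutive HSP70, was called, at -0.89 ± 0.24 (adjusted p = 0.0228). That share of 7.14% is near the 4.85% of all tested genes called negative. Hspa8 had 2244, 1575, 1667, 1731 and 1545 CPM in BAT after 24 h and 1312, 1698, 1611, 1671 and 1317 CPM at 22 °C. In iWAT it had 1428, 1160, 986.9, 1069 and 1343 CPM after 24 h, against 380.9, 491.1, 639.8, 777.8 and 508.0 CPM at 22 °C. The step was clear of overlap in iWAT and not in BAT, and the call was lost without iWAT 22 °C library 1 (0.0508). Rbm3, a cold-inducible RNA binding protein, rose by 0.67 in iWAT and differed by -0.57 ± 0.14 (adjusted p = 0.0118), while its relative Cirbp differed by -0.14 ± 0.22 (0.744).

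Vascular, matrix and progenitor lists had positive medians, and their called responses in iWAT were all falls. Of 15 endothelial markers all 15 had a positive difference, 3 of them called, with a median of 0.34. In BAT 2 rose and 2 fell, and in iWAT 7 fell. The calls are 20% of the list, against 2.96% of all tested genes called positive. Over all tested genes 10.2% rose and 8.63% fell in BAT, and 10.5% fell in iWAT. The BAT counts are near those shares. Pecam1, the endothelial adhesion molecule CD31, had 152.9, 163.2, 183.4, 172.6 and 137.2 CPM in BAT after 24 h, against 138.6, 129.1, 114.6, 111.9 and 130.8 CPM at 22 °C. In iWAT it had 73.5, 82.8, 88.4, 70.5 and 80.2 CPM after 24 h, against 112.9, 117.7, 114.3, 62.9 and 142.4 CPM at 22 °C. Only 1 library in each depot broke the separation, BAT 22 °C library 1 and iWAT 22 °C library 4, and the difference was 0.85 ± 0.19 (adjusted p = 0.00601). Vwf (1.10 ± 0.32, 0.03) and Cdh5 (0.67 ± 0.19, 0.0298) were the others, lost in 7 and 8 of 20 omissions (up to 0.0706 and 0.0678). The endothelial count was 1 without BAT 24 h library 4, BAT 22 °C library 3 or 5, or iWAT 24 h library 1, and 5 without iWAT 22 °C library 4. The summed level of the endothelial list was 1055 to 1295 CPM in BAT after 24 h, 961.2 to 1255 CPM in BAT at 22 °C, 605.1 to 762.8 CPM in iWAT after 24 h and 574.6 to 1015 CPM in iWAT at 22 °C. Whether fewer or more cells of a type contributed was not tested.

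Type IV collagen and elastin genes rose in BAT. Of 23 matrix genes 3 were called positive and 2 negative, with a median of 0.32, while 4 rose and 7 fell in BAT and 13, all the called ones, fell in iWAT. The calls are 13% and 8.7% of the list, against 2.96% and 4.85% of all tested genes, so the negative share is near background. Over all tested genes 10.2% rose and 8.63% fell in BAT, and 10.5% fell in iWAT. Col4a2, a type IV collagen chain, had 577.3, 608.4, 588.3, 608.6 and 494.2 CPM in BAT after 24 h, against 353.7, 357.7, 286.7, 301.3 and 311.1 CPM at 22 °C. In iWAT it had 271.7 to 369.2 CPM after 24 h and 188.0 to 443.2 CPM at 22 °C. Cold BAT stood clear of BAT at 22 °C, and the difference was 0.90 ± 0.21 (adjusted p = 0.00959). Col4a1, its partner chain, differed by 0.77 ± 0.19 (0.0111), and Eln, elastin, by 0.84 ± 0.23 (0.0205), while the crosslinking enzyme Lox (-0.90 ± 0.20, 0.00704) and the laminin chain Lama4 (-0.84 ± 0.16, 0.00181) fell in BAT. Of 18 progenitor markers Cd34 (1.27 ± 0.34, 0.022) and Ly6a (1.21 ± 0.31, 0.0165) were called, 11.1% of the list, against 2.96% of all tested genes called positive. The Cd34 call was lost without iWAT 22 °C libraries 2 and 4 (adjusted p = 0.0649) and without both 24 h libraries of number 4 (0.0623). Cd34 had 31.4 to 67.7 CPM in iWAT after 24 h, against 77.8 to 200.7 CPM at 22 °C. Ly6a rose in BAT, where it had 101.2 to 240.8 CPM after 24 h, against 74.2 to 92.2 CPM at 22 °C.

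Interferon-stimulated and macrophage genes had medians of 1.06 and 0.87 with few calls: 2 of 19 (Oas1a and Oasl2, antiviral oligoadenylate synthetase family genes) and 1 of 17 (C1qc, a complement chain), where 2.96% of all tested genes were called positive. A single macrophage call is near that background. All 19 interferon genes had a positive difference, and 5 rose in BAT. Oas1a had 1.66, 1.54, 3.25, 6.34 and 2.03 CPM in BAT after 24 h, against 1.71, 1.46, 0.819, 1.13 and 1.46 CPM at 22 °C. In iWAT it had 4.01, 4.52, 2.28, 7.35 and 5.39 CPM after 24 h and 7.92, 6.65, 4.45, 7.51 and 4.88 CPM at 22 °C. Library 4 after 24 h was the highest of its group in both depots, and without BAT 24 h library 4 no interferon gene was called (Oas1a adjusted p = 0.125, Oasl2 0.137). The 2 calls became 0 in 8 of the 20 omissions and 6 without iWAT 24 h library 4. Oas1a belongs to a family of near-identical genes whose reads can be split. C1qc, at 1.39 ± 0.40 (adjusted p = 0.03), lost its call in 9 of 20 omissions (up to 0.082). Macrophage markers summed to 188.5 to 486.7 CPM in BAT after 24 h, the highest in library 4, and to 184.1 to 288.5 CPM in BAT at 22 °C. In iWAT they summed to 495.1 to 716.9 CPM after 24 h and 421.4 to 828.8 CPM at 22 °C.

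Skeletal muscle markers had a list median of 6.83 that rested on iWAT 22 °C library 2 and was -2.27 without it. Of the 11 tested 0 were called by edgeR, 3 by DESeq2 and 8 at an unadjusted p under 0.05. Of the lymphocyte, smooth muscle, nerve and epithelial markers 0 were called by edgeR, 0 by DESeq2 and 0 at an unadjusted p under 0.05.

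The depots themselves differed for 63.6% of all tested genes after 24 h and for 66.9% at 22 °C. The fitted gap after 24 h is the gap at 22 °C plus the depot difference by which the genes were called. A negative difference can therefore only narrow or turn a gap with BAT higher, and only widen one with iWAT higher. The reverse holds for a positive difference. The counts below thus follow in part from that choice, describe the called genes only and are no test. Of the 683 genes with a negative difference, 341 were higher in BAT at 22 °C and came closer to iWAT after 24 h. Another 183 had their gap widened, and for 159 the sign of the fitted gap turned. Of the 417 genes with a positive difference, 130 gaps narrowed, 115 widened and 172 turned sign. These are signs of fitted values: 63 of the 183 and 44 of the 115 widened gaps, and 56 of the 159 and 67 of the 172 turned ones, were not called at 22 °C. Some turned gaps were also not called after 24 h, such as Eln and Ly6a. Ucp1 was 4.79-fold higher in BAT than in iWAT after 24 h and 43.9-fold higher at 22 °C. Fabp3 was 5.29-fold higher in BAT after 24 h and 69.1-fold higher at 22 °C. Npr3 turned, with a ratio of BAT over iWAT of 1.90 after 24 h and 0.234 at 22 °C. Scd1 had a ratio of 0.516 after 24 h and 1.12 at 22 °C, where the depots were not called as different (adjusted p = 0.551). Ckb widened, at 15.8-fold higher in BAT after 24 h and 2.11-fold higher at 22 °C.

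**Figure D5:**
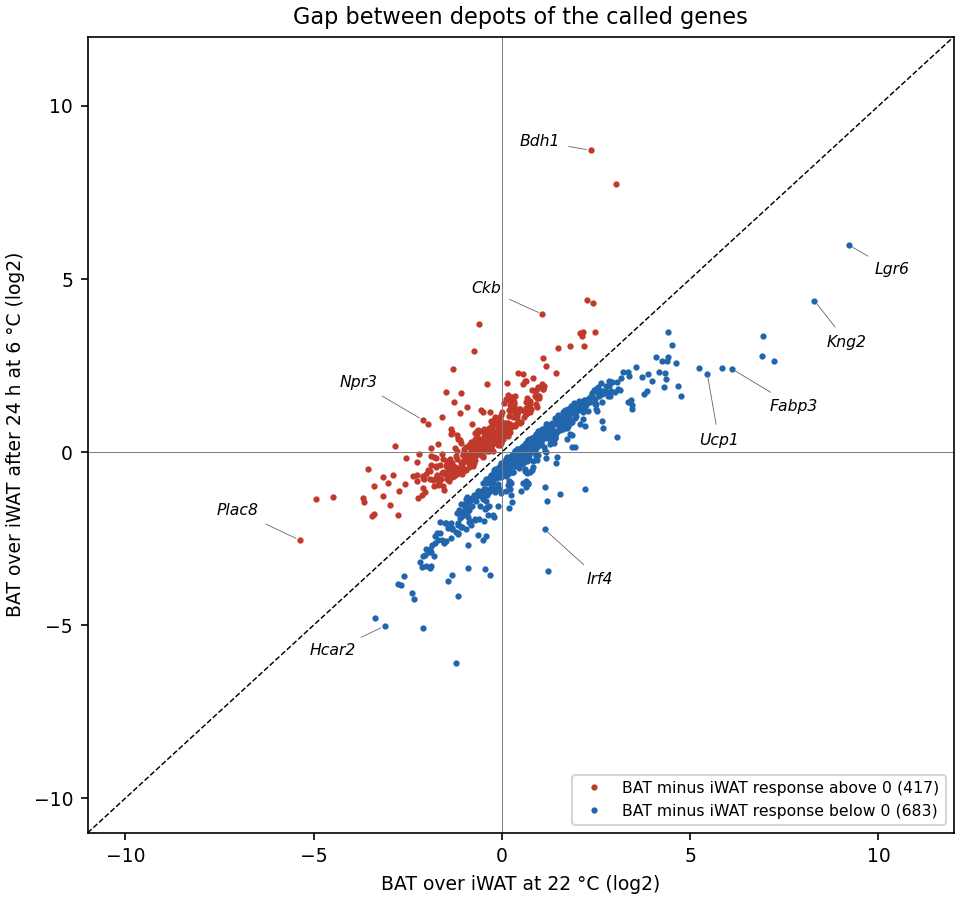
Log2 ratio of BAT over iWAT after 24 h at 6 °C (y axis) against the same ratio at 22 °C (x axis) for the 1100 called genes, with the dashed line marking an unchanged ratio. Points between the x axis and the dashed line on the right, such as Ucp1, Fabp3 and Kng2, are gaps that narrowed, and Npr3 lies above 0 after 24 h and below 0 at 22 °C.

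The same difference after 6 h in the cold was called for 1325 genes (9.4%). It shares the 22 °C libraries of both depots with the 24 h difference, so its values are only set beside it, and the change between times was not tested. Bdh1 differed by 7.14 at 6 h and 6.36 at 24 h, Npr3 by 2.46 and 3.02, Ckb by 2.12 and 2.91, and Sdf2l1 by 1.90 and 2.60. Ucp1 was at -2.54 at 6 h (adjusted p = 0.0775) and -3.20 at 24 h, and Fasn at -1.34 (0.0253) and -1.35. Some genes had a value near 0 at 6 h. Nr4a3 was at -0.15 at 6 h (adjusted p = 0.9) and -3.27 at 24 h, Hspa8 at 0.29 (0.479) and -0.89, Ugp2, which makes UDP-glucose for glycogen, at -0.24 (0.566) and -1.12, and the matrix enzyme Lox at -0.12 (0.756) and -0.90.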

How the data were processed

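The deposited counts were whole numbers of reads assigned to each gene by the authors, unscaled, and the deposited FPKM were the authors' values per gene length and library total. Per the labels' protocols, polyA libraries were made with a NEBNext Ultra II kit, and per the submitters' processing notes the tools were HISAT2 and HTSeq on GRCm39, with versions not given in the sources used here. Strand use is not stated, so overlapping or antisense genes cannot be told apart.

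Counts of all 30 libraries entered 1 edgeR 4.0.16 fit (R 4.3.3) with a mean per group: filterByExpr with a minimum count of 10, TMM factors, quasi-likelihood F test, Benjamini-Hochberg over 14089 genes. The contrast was (BAT 24 h minus BAT 22 °C) minus (iWAT 24 h minus iWAT 22 °C). Errors of log2 values are the size over the root of F, and those of CPM are SD. CPM used TMM-scaled library sizes. TMM factors were 0.818 to 0.879 in BAT after 24 h, 0.847 to 0.877 in BAT at 22 °C, 1.13 to 1.21 in iWAT after 24 h and 1.19 to 1.38 in iWAT at 22 °C. Libraries of a group differed beyond counting noise.

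Gene lists numbered 37. The genes and lists were chosen with earlier results of these data known. Named were the 8 largest differences of each sign among called genes reaching a group mean of 5 CPM (predicted genes and clone names were skipped), the 4 largest opposed genes of each sign, up to 3 called members of a list and 16 fixed genes. Other list members in the text, among them Hspa5, Manf, Xbp1, Bmp8b and Cpt1a, were added after their values were seen. A few genes named by this rule are not reported here. Alternatives were RLE and upper-quartile factors, leaving out mitochondrially encoded genes, no filter or 1 CPM in 5 libraries, DESeq2 1.42.0, limma 3.58.1 (voom, and FPKM with pseudocounts of 1 and 0.1), the 20 libraries alone, replicate blocks and leaving out each library. Fits within a depot and leaving out pairs of libraries were chosen after seeing the data. A library was set apart in a group of 5 when its gap to the next exceeded 0.71 of the range (Dixon). Promoters came from RefSeq, GRCm38.p6. Figures were drawn with matplotlib 3.10.9.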

Additional observations from a re-analysis of the deposited data

Results flagged for a closer look

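The depot difference itself was called by the interaction test for 1100 genes. Single libraries stood apart, by their gap to the next library of 5, in 12 of 152 gene groups (38 genes) and 3 of 44 list groups (11 lists), where chance alone sets apart about 1 in 20 groups.

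In cold BAT, library 4 was highest for Plac8 (4.192 CPM, next 1.585), and library 3 was highest for the cold-inducible genes Cirbp (20.4 CPM, next 14.35) and Rbm3 (85.29 CPM, next 63.81). In BAT at 22 °C, library 5 was highest for Bdh1 (1.736 CPM) and lowest for Gpr135 (13.38 CPM), library 4 was highest for Plac8 (1.286 CPM) and library 1 was highest for Irf4 (79.25 CPM). In cold iWAT, library 5 was highest for Fabp3 (905.4 CPM, next 497.3) and Fam131c (3.717 CPM), and library 1 was lowest for Pck1 (2894 CPM, next 4133). In iWAT at 22 °C, library 3 was highest for Fam131c (0.1626 CPM) and library 4 was lowest for Endod1 (9.895 CPM).

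As mean log2 CPM over a list, macrophage markers stood apart in BAT 22 °C library 4 (3.296, next 2.833). Skeletal muscle markers stood apart in iWAT 22 °C library 2 (6.394, next -0.3813), and respiratory chain genes in iWAT 22 °C library 4 (8.035, next 7.31). The part of these libraries in the depot differences is given above as values without them and was otherwise not tested.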

How the results depend on the processing

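The 1100 calls became 1956 on FPKM with a pseudocount of 1 and 641 without the 24 h library 4 of both depots, and 703 to 1641 when 1 library was left out. Without 1 library the positive calls were 264 to 536 and the negative ones 439 to 1105, the lowest without iWAT 22 °C library 1 and the highest without its library 4. Of these 20 fits none turned the sign of a called gene. Positive calls were 1571 and 1076 on FPKM (pseudocounts 1 and 0.1) and 242 without both number 4 libraries. Negative calls were 385 and 371 on FPKM and 399 without both. The share of positive calls was 37.9% with TMM factors, 51.3% with upper-quartile factors, and 80.3% and 74.4% on FPKM, where the median difference of all genes stood at 0.102 and 0.146. The calls in iWAT alone numbered 5609 on FPKM plus 1. The cause of these shifts was not tested. RLE factors gave 1124 calls (1064 shared with the 1100), DESeq2 1573 (1091 shared) and voom 1513 (1066 shared).

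On FPKM plus 1 the sign turned for 3 named genes: Cirbp, which was not called (0.02173, and 0.006078 on FPKM plus 0.1), Lgr6 (0.17) and Fam131c (0.34). Of the 90 called named genes, 46 kept their call under every alternative. Without iWAT 22 °C libraries 2 and 4 the calls of Plac8, Dkk2, Oas1a, Oasl2, C1qc, Cd34, Rora, Cry1, Scd1, Fasn, Acly and Lgr6 were lost (12 genes), and without both 24 h libraries of number 4 those of 33. After 24 h, BAT and iWAT libraries of the same number deviated together weakly (correlations of 0.132, 0.0918, 0.101, 0.342 and 0.0824), and each of the 5 pairs was the best match in both directions, a hint from the data and not the design. At 22 °C the correlations were -0.534 to 0.0617, and 3 of all 10 exceeded 0.1, so the numbers were not taken to pair the libraries. The replicate block by number gave 1241 calls and the block by time and number 1627, of which 1035 were negative. Precision is limited by 5 libraries a group and, for genes with few reads in iWAT at 22 °C, by depth.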

Other observations

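Smaller metabolic lists gave further called genes. Negative calls made up 30.8% of the glycogen list, against 4.85% of all tested genes. Glycogen genes had 4 calls of 13, all negative, in each of the 20 omissions, among them Ugp2 (-1.12 ± 0.24, adjusted p = 0.00568), the glycogen synthase Gys2 (-1.01 ± 0.27, 0.0185) and the branching enzyme Gbe1 (-0.93 ± 0.22, 0.00988). Ugp2 had 378.5, 332.9, 366.6, 385.0 and 423.7 CPM in BAT after 24 h and 369.2, 338.4, 387.1, 362.9 and 423.3 CPM at 22 °C, against 381.7, 296.0, 267.5, 428.8 and 471.2 CPM in iWAT after 24 h and 156.8, 162.5, 171.1, 197.5 and 158.3 CPM at 22 °C. The cold iWAT values spread around those of BAT, while iWAT at 22 °C lay below all other groups. Bckdk, the kinase that inhibits branched-chain amino acid breakdown, fell by 0.57 in BAT (79.1 to 93.4 CPM after 24 h, 121.2 to 131.0 CPM at 22 °C) and differed by -0.68 ± 0.14 (adjusted p = 0.0037). Gclc, which limits glutathione synthesis, fell by 0.33 in BAT and differed by -0.47 ± 0.12 (0.0127), a call lost on FPKM with both pseudocounts (adjusted p of 0.0918 and 0.0958). Of 21 genes of cholesterol synthesis and uptake only Hsd17b7 was called, a share near the 4.85% of all tested genes called negative, rising by 1.41 in iWAT with a difference of -1.12 ± 0.29 (0.0165). Proteasome subunits rose in both depots, 8 of 24 in BAT and 21 of 24 in iWAT, where 10.2% and 16% of all tested genes rose. The difference was called for Psmd11 (-0.49 ± 0.12, 0.0144) and Psmd14 (-0.39, 0.0496, lost in 17 of 20 omissions, up to 0.11). These make up 8.33% of the list, near the 4.85% of all tested genes called negative.

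Of 19 clock genes 1 was called positive and 3 negative. These are 5.26% and 15.8% of the list, against 2.96% and 4.85% of all tested genes, and 4 of the 20 omissions left no negative call. The repressor gene Nr1d1 had 161.8, 132.6, 147.0, 133.7 and 109.6 CPM in BAT after 24 h and 86.8, 92.5, 98.2, 115.0 and 95.3 CPM at 22 °C, against 103.4, 83.3, 98.5, 122.1 and 87.2 CPM in iWAT after 24 h and 123.5, 113.6, 128.4, 97.0 and 129.8 CPM at 22 °C. Its difference was 0.75 ± 0.16 (adjusted p = 0.00443), and at 6 h it was -0.04 (0.895). The opposing activator Rora differed by -0.50 ± 0.15 (0.0316, lost in 6 of 20 omissions, up to 0.0598). Cry1, another clock gene, was also called negative, and lost its call in 14 of 20 omissions (edgeR adjusted p of up to 0.0842). Time of day of each collection is not given in the sources used here, so the hour and the length of cold cannot be told apart. Pik3r1, a regulatory subunit of PI3 kinase, fell in both depots, by more in BAT on the log2 scale, with 35.9 to 48.7 CPM after 24 h against 70.2 to 286.1 CPM at 22 °C, and with 123.6 to 191.6 CPM in iWAT after 24 h against 139.8 to 419.9 CPM at 22 °C. Library 1 was the lowest of both 22 °C groups, and the difference was -1.31 ± 0.36 (0.0237). The R-spondin receptor gene Lgr6 had its high levels in BAT, with 392.8 to 421.1 CPM after 24 h and 144.5 to 208.4 CPM at 22 °C, against 3.71 to 11.02 CPM in iWAT after 24 h and 0.0376 to 0.975 CPM at 22 °C. Its difference of -3.24 ± 0.99 (0.0396) was lost in 15 of 20 omissions (up to 0.0922), and its mean CPM change was larger in BAT (227.7 CPM) than in iWAT (6.22 CPM).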
